A study of Mus musculus with 4 samples.

Results

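The 10 genes described here make, break down, bind and sense retinoic acid: Rdh10, Aldh1a2 and Aldh1a3 (synthesis), Cyp26a1 and Cyp26b1 (degradation), Crabp1 and Crabp2 (binding), and Rara, Rarb and Rarg (receptors). They were chosen by name for their roles, with earlier results of these data known, as were the gene lists used below. All 10 were found among the 17712 genes of the deposited table. RNA sequencing libraries were made from forelimbs of Shh null mouse embryos (2 libraries) and of their wild-type littermates (2 libraries), all of the outbred Swiss Webster stock at 33 to 35 somites. The age label reads E10.25 and the source label E10.5, in days of embryonic development. Shh encodes Sonic hedgehog, secreted by the posterior limb margin, and the study compared limbs with and without it. The labels do not describe the null allele, do not say whether embryos were pooled, and call the replicates technical, so each p-value measures the spread between these libraries. With 4 libraries, 0.333 is the smallest two-sided p that an exact permutation test allows.

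Retinoic acid is made from retinol in an oxidation to retinaldehyde, which RDH10 carries out in embryos, followed by a second oxidation by ALDH1A enzymes. It enters the nucleus and binds receptors of the RAR family, which sit on DNA with RXR partners at direct repeats of a short hexamer. CYP26 enzymes hydroxylate it and so clear it from a tissue. In the mouse limb bud, Aldh1a2 is known from the trunk mesoderm next to the bud and Cyp26b1 from the distal bud, and mice without Cyp26b1 have shortened limbs.

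Each library held between 18456502 and 29620468 reads assigned to genes, and values are CPM, the reads of a gene scaled to a common library size by the TMM method, which corrects for library composition. Shh itself was at 3.15 and 2.42 CPM in Shh null, against 11.4 and 7.88 CPM in wild type. The forelimb gene Tbx5 stood between 61.5 and 80.2 CPM in the 4 libraries, whereas the hindlimb genes Tbx4 and Pitx1 stayed at or below 4.53 CPM and 0.457 CPM. Of the 5 sex-linked genes examined, the Y-linked Ddx3y, Eif2s3y, Uty and Kdm5d were called lower and Xist higher in Shh null, and the part of sex in the differences below was not tested. None of the 10 genes lies on a sex chromosome.

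Promoter sequence of Rarb and Cyp26a1 is shown first, because both genes are known to be induced by retinoic acid in mouse. RefSeq windows (build GRCm38.p6, the same assembly as the mm10 of the study) run from 250 bases before to 50 bases after each gene start. Windows of 7 of the 10 genes matched by symbol, and Rdh10, Aldh1a3 and Crabp2 were not analysed here. Each window was searched on both strands for a DR5, a direct repeat spaced by 5 bases of the hexamer AGGTCA or of its variants, which were AGTTCA, the related letters GGTTCA, and the related letters GGGTCA. Rarb had a match 53 to 37 bases before its RefSeq start, which is an internal start 244 kb downstream of the outermost start that GENCODE gives for the gene. Cyp26a1 had a match 32 to 16 bases before its RefSeq start, on the opposite strand of the gene. That RefSeq start is 10 bases downstream of the GENCODE start. Both matches are printed here in the direction of the match, with the hexamers in capitals.
Rarb DR5, chr14:16575506-16575535, minus strand: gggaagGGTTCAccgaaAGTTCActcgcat
Cyp26a1 DR5, chr19:37697770-37697799, minus strand: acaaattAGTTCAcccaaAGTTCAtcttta
The second hexamer is identical in the pair. A DR5 was present in 0.0974% of all 32851 windows, which belong to 31 of 27025 genes. The repeat spaced by 2 bases was in 0.268% of windows and in none of the windows of these genes. The windows of Cyp26b1, Aldh1a2, Crabp1, Rara and Rarg held neither repeat, which says only that these letters are absent from these windows.

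Cyp26b1 was the 1 member whose change was called, so the stretch before its GENCODE start is shown too, with the letters TATAAA in capitals.
Cyp26b1, chr6:84593909-84594060, minus strand: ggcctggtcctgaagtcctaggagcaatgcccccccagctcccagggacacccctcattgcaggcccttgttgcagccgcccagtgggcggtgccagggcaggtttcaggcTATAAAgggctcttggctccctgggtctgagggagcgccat
These letters begin 139 bases before the RefSeq start. That start is 98 bases downstream of the GENCODE start, next to which the printed stretch ends. The letters were found, on either strand, in 13.6% of all windows.

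Of the degrading enzymes, Cyp26b1 (mm10 chromosome 6, 84571414 to 84593908, minus strand) had 31.1 and 29.8 CPM in Shh null, against 57.6 and 60.4 CPM in wild type. The highest Shh null value was thus well under the lowest wild-type value, and the libraries of a group differed by at most 1.05-fold. Its mean was 30.5 ± 0.965 CPM in Shh null and 59.0 ± 2.01 CPM in wild type (SD, n = 2 each). On the log2(CPM + 1) scale, which understates the change of low genes, the difference was −0.93 ± 0.11 (SE, 95% interval −1.17 to −0.69; limma with Benjamini-Hochberg adjustment over 13224 tested genes, adjusted p = 0.00215). Cyp26b1 fell in each of the 4 pairings of a Shh null with a wild-type library, to between 0.493 and 0.541 of the wild-type level. It was called in 14 of 14 alternative analyses, among them a pairing added after seeing the data and fits that left out 1 library. With all 4 libraries kept, the adjusted p lay between 7.5e-09 (DESeq2) and 0.00762 (limma with no filter). The authors' deposited table gave a log2 fold change of −0.95 with a false discovery rate of 5.06e-09, and called 4.01% of its genes at a rate under 0.05. In bulk limb tissue, fewer cells expressing a gene and less RNA per cell cannot be told apart.

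Cyp26b1 was the 1 gene called among the 9 members that passed the filter of at least 1 CPM in 2 libraries, where 2.48% of all tested genes were called and 1.24% were called lower. By edgeR it was also the 1 called member, beside 2.45% of all tested genes. A single gene makes up 11.1% of 9, so this count says nothing of the family as a whole. At an unadjusted p under 0.05, Crabp2 was higher and Cyp26b1 lower, while 9.5% of all tested genes were higher and 9.02% lower at that threshold. Groups did not overlap for 3 of the 9 (Rdh10, Cyp26b1 and Crabp2; 33.3%), against 50.2% of all tested genes. Of the 3, Rdh10 and Crabp2 were higher in Shh null and Cyp26b1 was lower. Among all 13224 tested genes, 25.1% were higher without overlap and 25% were lower without overlap. The other members are therefore described by their values.

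**Figure D1:**
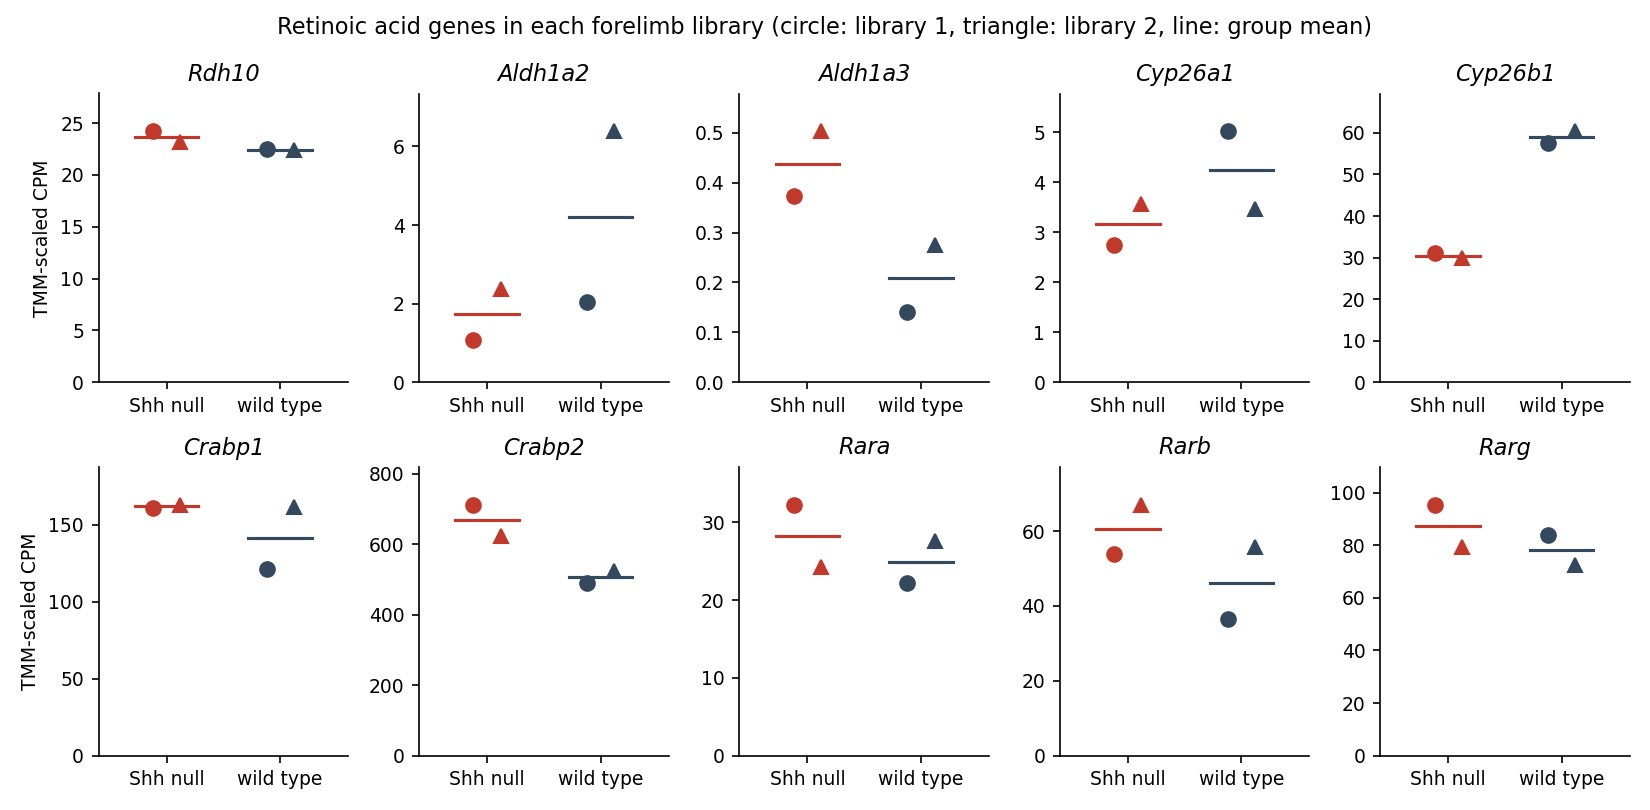
TMM-scaled CPM (vertical axes, each from 0) of the 10 genes in the Shh null libraries (left, red) and the wild-type libraries (right, dark), with circles for library 1, triangles for library 2 and lines for group means. Cyp26b1 lies near 30 CPM in Shh null and near 60 CPM in wild type (30.5 and 59.0 on average), whereas the symbols of most other genes overlap between groups.

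Cyp26a1 (chromosome 19, 37697798 to 37701536), the paralog with the DR5 in its promoter, was at 2.74 and 3.57 CPM in Shh null and at 5.02 and 3.47 CPM in wild type. The values overlapped, since Shh null 2 exceeded wild type 2. The log2 difference was −0.33, with a 95% interval of −0.79 to 0.14 (limma adjusted p = 0.431). That interval includes 0, and whether Cyp26a1 differed in its change from Cyp26b1 was not tested. Cyp26c1, the third CYP26 gene, was at 0.332 and 0.412 CPM in Shh null and at 0.456 and 0.441 CPM in wild type, below the filter. Per kilobase of exon, Cyp26b1 made up 76.0% ± 3.91 of the summed CYP26 level in Shh null and 82.2% ± 3.92 in wild type (SD, n = 2 each). The summed CYP26 level was 7.39 and 7.60 CPM per kb in Shh null, against 13.6 and 13.3 CPM per kb in wild type, 1.79-fold lower on average in Shh null.

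The genes whose values over the 4 libraries lay nearest to those of Cyp26b1 were Gpt2, Nid1, Rnd3, Cpm and Sost, by Euclidean distance between mean-centred log2(CPM + 1) values among 10190 candidates with a mean of at least 5 CPM, predicted genes left out. The distances were 0.0876 for Gpt2, an alanine aminotransferase gene, 0.0963 for Nid1, which encodes the basement membrane protein nidogen, 0.118 for Rnd3, a small GTPase gene, 0.128 for Cpm, a carboxypeptidase gene, and 0.130 for Sost, which encodes the secreted Wnt and BMP antagonist sclerostin. Gpt2 was at 62.2 and 56.5 CPM in Shh null, against 109.8 and 110.0 CPM in wild type. With 4 libraries, such likeness amounts to a shared fall between groups and small spread within them. A list of distal limb mesenchyme genes, where Cyp26b1 is known to be expressed, held Hox genes of the A and D clusters, Lhx2 and Lhx9. Of its 7 tested genes, 4 were called lower (Hoxa13, Hoxd11, Hoxd12 and Hoxd13), with log2 differences from −2.45 (Hoxd11) to −5.37 (Hoxd13). Lhx2 and Lhx9 were called higher, and Hoxa11 was not called. The list summed to 502 and 491 CPM in Shh null and to 677 and 582 CPM in wild type. This sum joins opposite changes and does not measure the fall of the Hox genes. Lhx9 made up most of it in Shh null, at 369 and 356 CPM, against 224 and 237 CPM in wild type. The part of the distal region in the Cyp26b1 values was not tested.

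In the synthesis branch, limma fitted with genotype alone called no change over the 4 libraries. Rdh10 (chromosome 1, 16105774 to 16133734), the retinol dehydrogenase gene, was at 24.2 and 23.1 CPM in Shh null and at 22.5 and 22.4 CPM in wild type. These groups did not overlap, but the ratio between any Shh null and any wild-type library was at most 1.08. The log2 difference was 0.07, with a 95% interval of −0.20 to 0.35 (limma adjusted p = 0.793). Within each library, the ratio of Cyp26b1 to Rdh10 CPM was 1.29 and 1.29 in Shh null and 2.56 and 2.70 in wild type, which restates the fall of Cyp26b1 against a gene of the same pathway that moved little.

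Aldh1a2 (chromosome 9, 71215789 to 71296243), which encodes the main retinaldehyde dehydrogenase of the early embryo, was at 1.08 and 2.38 CPM in Shh null and at 2.04 and 6.39 CPM in wild type. Wild type 2 stood apart, 3.14-fold above wild type 1, and Shh null 2 was above wild type 1. The log2 difference was −0.84 ± 0.38 (SE, 95% interval −1.68 to 0.01; limma adjusted p = 0.274). It was −0.20 without wild type 2, −1.48 without wild type 1 and −0.49 without Shh null 1. Each of these fits leaves 1 library in a group, so no p-value is given. In all it was called in 2 of 13 alternatives, among them the fit without wild type 1, whose p cannot reflect the wild-type spread. The genes nearest to it in profile (Lin28a, Cyr61, Plcg2, Arxes1 and Prtg) lay at distances of 0.596 to 0.740, several times those found for Cyp26b1, and none of the 5 was called by limma (adjusted p 0.0932 for Plcg2, the lowest).

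Several markers of the coelomic epithelium, the lining of the body cavity, had their highest value in the same wild-type library. Wt1 was at 0.622 and 0.915 CPM in Shh null and at 0.702 and 3.53 CPM in wild type, and Gata4 was at 0.332 and 0.549 CPM in Shh null and at 0.0702 and 2.81 CPM in wild type. All 6 markers of the list were in the table, and 5 of them (Wt1, Gata4, Gata6, Upk3b and Tcf21, but not Msln) had their highest value in wild type 2. The share of all genes highest in that library was not computed, so this count has no background to be judged against. Gata6, the 1 marker that passed the filter, was nearly level in wild type 2 (4.96 CPM) and Shh null 2 (4.803 CPM). Tcf21 rested on 12 reads in wild type 2. Their summed level was 3.98 and 7.46 CPM in Shh null and 3.58 and 13.8 CPM in wild type, and 0 of the 6 were without a read in any library. Trunk mesoderm markers summed to 161 and 133 CPM in Shh null and to 174 and 143 CPM in wild type, mostly from Meox2 and Tbx18. Of the 7 in the table, Meox1, Tcf15 and Foxc2 were highest in wild type 2. Meox2 was highest in wild type 1, Tbx18 and Pax1 in Shh null 1, and Tbx6 in Shh null 2. Pax1 was the 1 called gene of 5 tested, where 2.48% of all tested genes were called. It was at 11.7 and 10.247 CPM in Shh null and at 2.88 and 2.15 CPM in wild type. The part of adjoining tissue in the Aldh1a2 values was not tested.

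**Figure D2:**
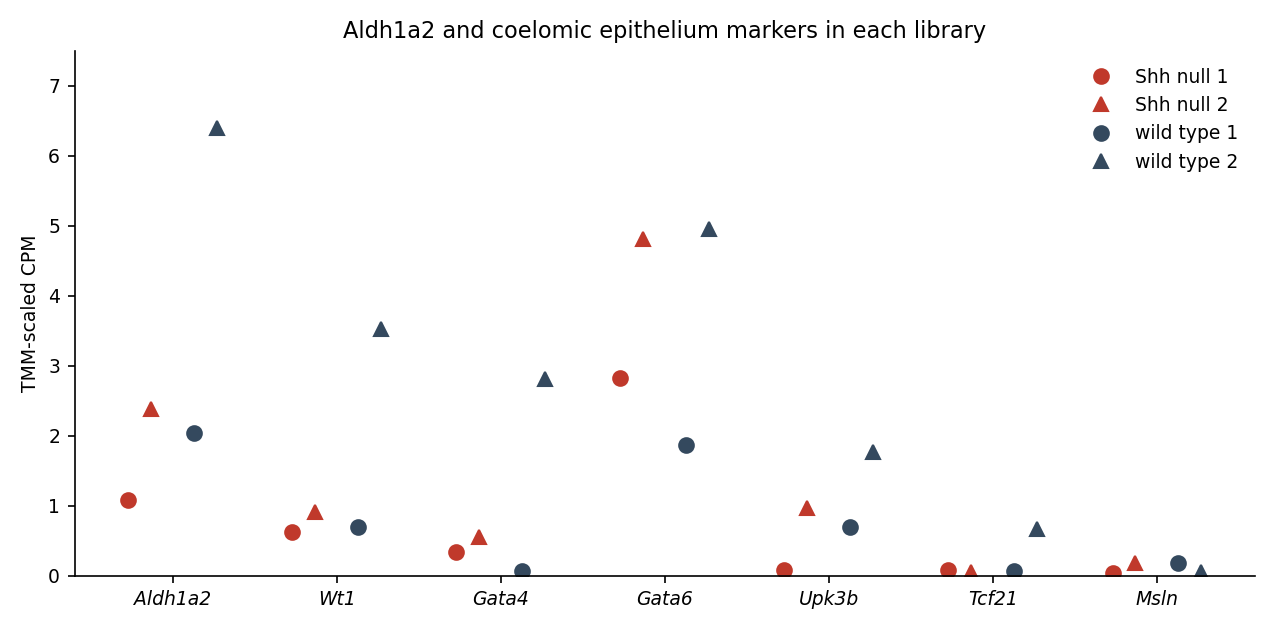
TMM-scaled CPM (vertical axis, from 0) of Aldh1a2 and 6 coelomic epithelium markers in each library, with Shh null in red, wild type in dark, circles for library 1 and triangles for library 2. The triangle of wild type 2 is highest for Aldh1a2 (6.39 CPM), Wt1 (3.53 CPM), Gata4 (2.81 CPM), Gata6, Upk3b and Tcf21.

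Aldh1a3 (chromosome 7, 66390890 to 66427517, minus strand), a paralog better known from the eye and nasal region, was found in 9 and 11 reads in the Shh null libraries and in 4 and 5 reads in the wild-type libraries. It was below the filter and was not tested. The pooled reads gave a ratio of 2.25 for Shh null over wild type, with a counting interval (95%, exact binomial) of 0.981 to 5.62 that covers counting error only. The third gene, Aldh1a1, had 0 reads in both Shh null libraries, where 3 reads, the limit a count of 0 allows, are worth 0.124 and 0.137 CPM, and it was at 0.105 and 0.165 CPM in wild type, so no fold is given. Per kilobase of exon, Aldh1a2 made up 88.05% ± 3.62 of the summed ALDH1A level in Shh null and 95.7% ± 1.59 in wild type (SD, n = 2 each).

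The cellular binding proteins were by far the most abundant members. Crabp2 (chromosome 3, 87948666 to 87953376), whose protein hands retinoic acid to the receptors, was at 712 and 623 CPM in Shh null and at 490 and 525 CPM in wild type. The groups did not overlap, with ratios of 1.19 to 1.45 between single libraries. The log2 difference was 0.39 ± 0.11 (SE, 95% interval 0.15 to 0.64), and it was not called by limma (adjusted p = 0.0969) or by edgeR. DESeq2 called it higher (adjusted p = 0.0269, with 3.98% of genes called by that tool), and over the alternatives other than a pairing added after seeing the data the adjusted p ranged from 0.0269 to 0.508. In the authors' deposited table its false discovery rate was 0.0692.

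Limb mesenchyme genes are given beside it. Of the 8 genes of that list, 3 were called higher (Prrx1, Prrx2 and Twist1) and 1 lower (Fgf10). The other 4 (Tbx5, Lmx1b, Msx1 and Shox2) were not called. Over all tested genes, 1.24% were called higher and 1.24% lower. The summed level of the list was 1227 and 1184 CPM in Shh null and 869 and 884 CPM in wild type. Prrx1 made up most of it in Shh null, at 654 and 613 CPM, against 431 and 468 CPM in wild type. The part of the share of mesenchyme in the Crabp2 values was not tested.

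Crabp1 (chromosome 9, 54764748 to 54773110), the paralog that is also abundant in neural crest cells, was at 161 and 163 CPM in Shh null and at 121 and 162 CPM in wild type. The difference rested on wild type 1, since wild type 2 matched the Shh null libraries. The log2 difference was 0.21, with a 95% interval of −0.08 to 0.50 (limma adjusted p = 0.428), and it was below 0.01 without wild type 1. Of the 6 neural crest and glia markers 2 were tested and 1 was called, where 2.48% of all tested genes were called. The called gene was Erbb3, higher in Shh null (22.8 and 22.0 CPM, against 13.6 and 11.4 CPM in wild type). The summed level of the list was 29.0 and 26.3 CPM in Shh null and 19.1 and 16.9 CPM in wild type. The defining crest genes Sox10 and Foxd3 were at or below 0.551 CPM in every library, and Foxd3 had no read in Shh null 2. Crabp2 made up 71.3% ± 2.11 of the summed CRABP level per kilobase in Shh null and 68.7% ± 3.32 in wild type (SD, n = 2 each), a difference smaller than the spread within wild type.

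The receptor genes were measured at intermediate levels. Rarg (chromosome 15, 102234938 to 102257517, minus strand), the receptor gene known from limb mesenchyme and cartilage precursors, was at 95.5 and 79.6 CPM in Shh null and at 84.0 and 72.4 CPM in wild type. Rara (chromosome 11, 98927818 to 98974942), the broadly expressed receptor gene, was at 32.3 and 24.2 CPM in Shh null and at 22.2 and 27.7 CPM in wild type. Both pairs of groups overlapped. The log2 differences were 0.16 for Rarg (95% interval −0.12 to 0.43; limma adjusted p = 0.528) and 0.17 for Rara (95% interval −0.20 to 0.53; limma adjusted p = 0.629), and that of Rara turned to −0.034 without Shh null 1.

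Rarb (chromosome 14, 16430839 to 16819156, minus strand), the receptor gene that retinoic acid itself is known to induce, and whose DR5 is printed above, was at 54.0 and 67.1 CPM in Shh null and at 36.6 and 55.8 CPM in wild type. Wild type 2 was above Shh null 1, so the groups overlapped. The log2 difference was 0.40 ± 0.18 (SE, 95% interval −0.01 to 0.81; limma adjusted p = 0.276). It was 0.70 without wild type 2 and 0.11 without wild type 1. Each of these fits leaves 1 wild-type library, so no p-value is given. Exons of Top2b, on the opposite strand, share 34.1% of the annotated exon bases of Rarb and the antisense gene Gm48162 4.31%, and the strand setting of the counting is not given in the sources used here. Top2b was at 769 and 817 CPM in Shh null and at 829 and 791 CPM in wild type and was not called. The other members share no annotated exon bases with another gene. Cyp26a1 and Rarb, which both carry a DR5, thus had differences of opposite sign, neither of which was called.

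Of the summed RAR level per kilobase, Rarg made up 53.2% ± 3.84 in Shh null and 56.1% ± 8.47 in wild type, Rarb 30.03% ± 6.28 in Shh null and 26.6% ± 6.59 in wild type, and Rara 16.7% ± 2.44 in Shh null and 17.3% ± 1.87 in wild type (SD, n = 2 each). These differences were smaller than the spread within groups. The shares may also depend on how reads in the exon bases that Rarb shares with Top2b were counted, which is not given. The summed RAR level was 40.0 and 37.0 CPM per kb in Shh null and 31.8 and 33.9 CPM per kb in wild type, and the summed CRABP level was 739 and 675 CPM per kb in Shh null and 522 and 599 CPM per kb in wild type.

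**Figure D3:**
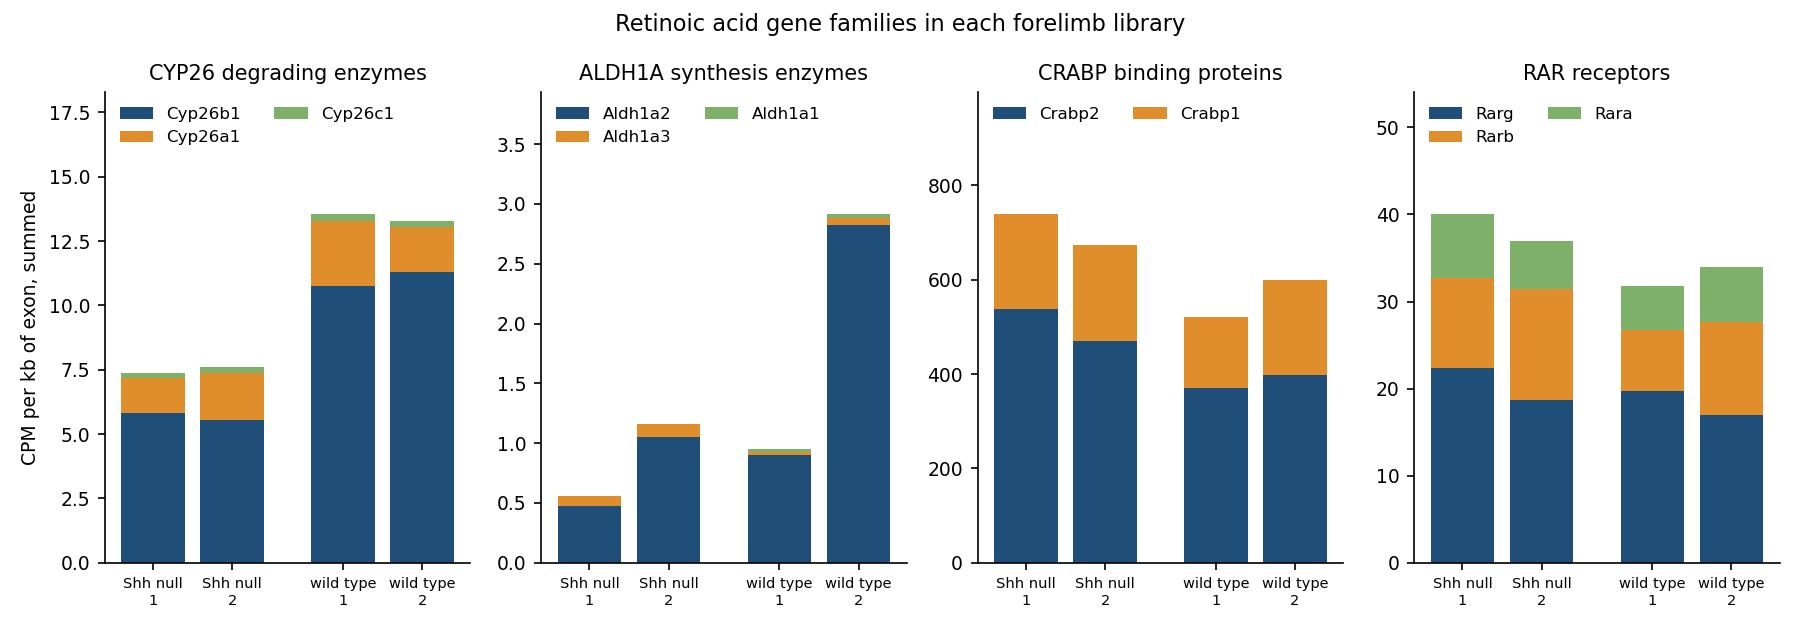
Summed CPM per kilobase of exon (vertical axes, each from 0) of 4 gene families in each library, with Shh null on the left and wild type on the right and coloured segments for the single genes. The CYP26 bars are lower in both Shh null libraries (7.39 and 7.60, against 13.6 and 13.3 in wild type), and the tall ALDH1A bar is wild type 2.

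Ordered by level per kilobase of exon, the members ran from Crabp2 (505 CPM per kb in Shh null and 384 CPM per kb in wild type) over Crabp1 (202 and 176 in the same order of groups) and Rarg (20.5 and 18.4) to Aldh1a3, at 0.0949 CPM per kb in Shh null and 0.0450 CPM per kb in wild type. The order at the top and at the bottom was shared by the 4 libraries, and the binding proteins took 91.0% to 93.2% of the summed level of the 10 genes. Cyp26b1 ranked 7 and 5 of 10 in the Shh null libraries, at 5.69 ± 0.180 CPM per kb, and 4 of 10 in both wild-type libraries, at 11.03 ± 0.376 CPM per kb (SD, n = 2 each). In Shh null it was level with Rdh10 (5.69 ± 0.182 CPM per kb) and Rara (6.47 ± 1.31 CPM per kb), from which it did not differ beyond their spread. In wild type it stood just above Rarb (8.78 ± 2.57 CPM per kb). The rank of Rarb may depend on how reads in the exon bases it shares with Top2b were counted. Neighbours whose values overlapped in wild type were Rara and Rdh10 (5.71 ± 0.881 and 5.396 ± 0.0278 CPM per kb), and Cyp26a1 and Aldh1a2 (2.14 ± 0.552 and 1.86 ± 1.36 CPM per kb).

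**Figure D4:**
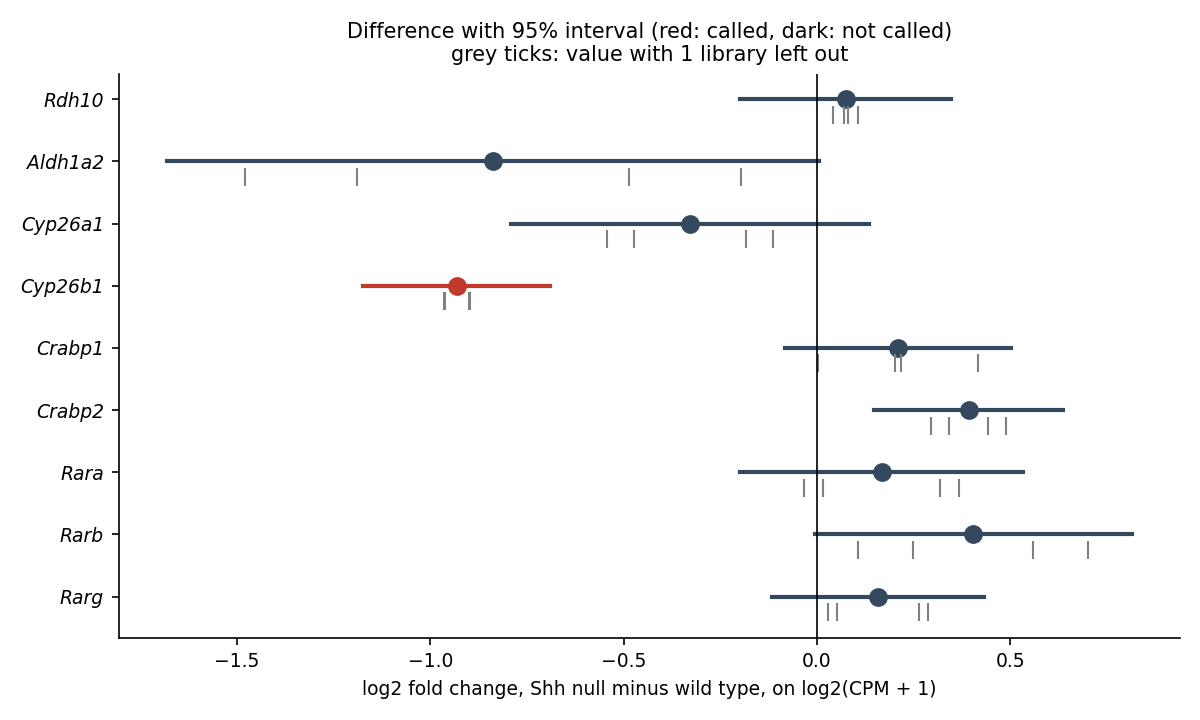
Log2 fold change of Shh null minus wild type on the log2(CPM + 1) scale (horizontal axis) for the 9 tested members, with bars for the 95% limma interval and grey ticks for the value with 1 library left out. Cyp26b1 (−0.93) has an interval and ticks far from 0, whereas the ticks of Aldh1a2 spread from −1.48 to −0.20.

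Other genes of the pathway were listed beside the members: retinol carriers and transporters, further dehydrogenases, RXR partners and coregulators. Of 33 listed genes 31 were in the table and 21 were tested. Ttr was called higher (4.76% of the 21, against 1.24% of all tested genes), none was called lower and 20 were not called. Besides limma, edgeR called 1 and DESeq2 called 0, and at an unadjusted p under 0.05 in limma 5 were higher (23.8%, against 9.5% of all tested genes) and 1 lower (4.76%, against 9.02%). Groups did not overlap for 10 of the 21 (47.6%, against 50.2% of all tested genes). The median log2 difference was 0.14, with 17 above and 4 below 0, and −0.00048 over all tested genes; for the 9 tested members it was 0.16.

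Ttr encodes transthyretin, the plasma carrier of thyroid hormone and of retinol-binding protein. It was at 2.82 and 3.61 CPM in Shh null, against 1.30 and 1.05 CPM in wild type, with a log2 difference of 0.95 ± 0.20 (SE; limma adjusted p = 0.0357). It was no longer called when either Shh null library was left out, which leaves 1 library in that group. It was also not called with quantile normalization (limma adjusted p = 0.0812), with no filter (limma, 0.0628) and in DESeq2 (0.0516). The log2 differences were 0.82 to 1.44 in these analyses. The authors' deposited table gave Ttr a log2 fold change of 1.43 and a false discovery rate of 9.16e-04. The most abundant of these genes, Fabp5, a fatty acid-binding protein gene, was at 294 and 329 CPM in Shh null and at 383 and 370 CPM in wild type and was not called (limma adjusted p = 0.184). Adh5, an alcohol dehydrogenase gene active in every tissue, was at 203 and 226 CPM in Shh null and at 245 and 227 CPM in wild type and was not called (limma adjusted p = 0.508).

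Genes known to respond to retinoic acid in mouse embryos were the last group. Of 14 listed genes 13 were in the table and 10 were tested, and 0 were called by limma, edgeR or DESeq2. At an unadjusted p under 0.05 in limma 4 were higher (Meis1, Meis2, Hoxb4 and Hoxb5, the last pair named after their values were seen), against 9.5% of all tested genes, and 0 lower. The groups of these 4 did not overlap, which is 40.0% of the list, against 50.2% of all tested genes. The median log2 difference of the list was 0.18.

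Meis1 and Meis2 encode homeobox proteins of the proximal limb. Meis1 was at 132 and 131 CPM in Shh null and at 94.8 and 114 CPM in wild type, with a log2 difference of 0.34 ± 0.11 (SE; limma adjusted p = 0.150). Meis2 was at 147 and 151 CPM in Shh null and at 118 and 127 CPM in wild type, with a log2 difference of 0.28 ± 0.10 (SE; limma adjusted p = 0.156). Hoxb4 was at 7.22 and 6.95 CPM in Shh null and at 4.07 and 5.45 CPM in wild type, and Hoxb5 was at 2.70 and 2.97 CPM in Shh null and at 1.75 and 1.87 CPM in wild type.

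**Figure D5:**
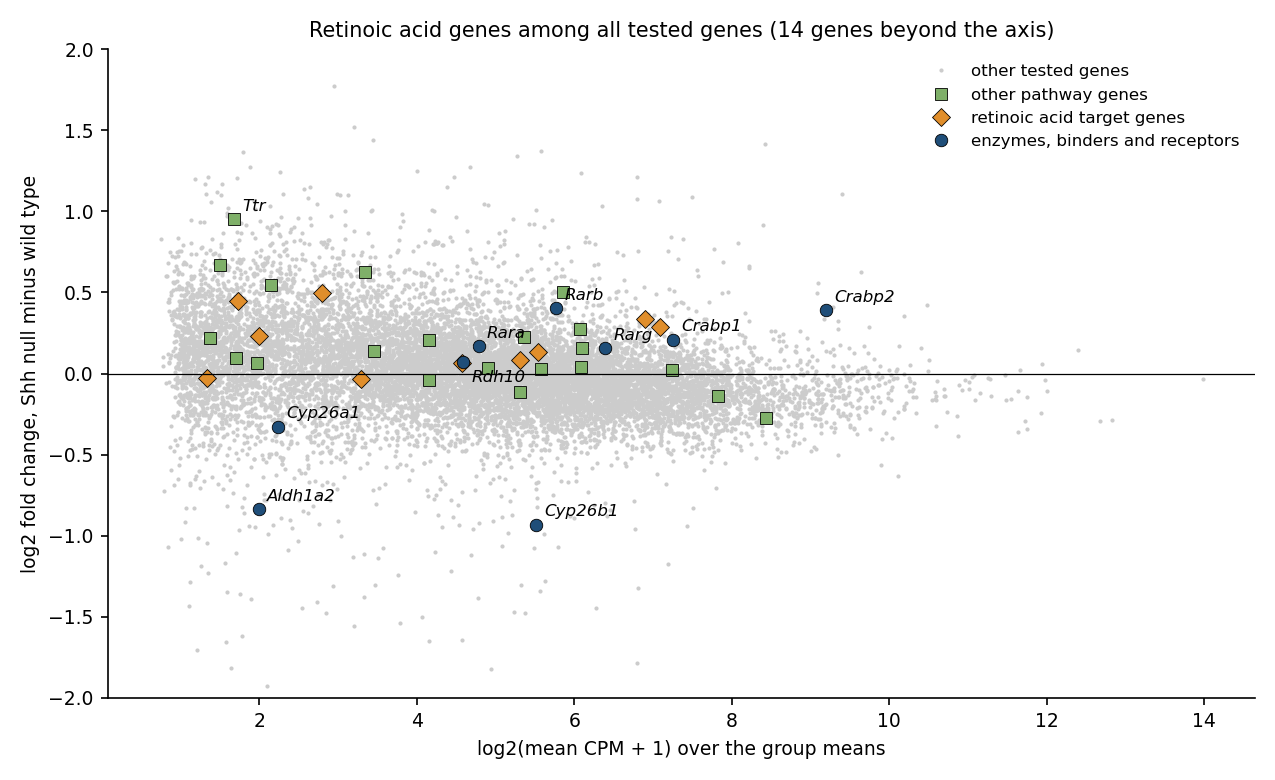
Log2 fold change of Shh null minus wild type (vertical axis) against log2 of the mean CPM + 1 (horizontal axis) for all tested genes in grey, with members as circles, other pathway genes as squares and target genes as diamonds; 14 genes lie beyond the axis limits of 2. Cyp26b1 lies at −0.93, and Ttr (0.95) is the 1 called square; the median of all grey points is −0.00048.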

How the data were processed

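Total RNA of forelimbs was sequenced in 4 libraries, grouped by the genotype label. Per the submitters' processing notes, the tools were edgeR 3.4.2, HTSeq 0.5.4p5, SAMtools and TopHat2 2.0.9, with build mm10. Their roles, the annotation and the strandedness of the counting are not stated there. The authors deposited a signal per gene and library. All of its values (100%) were whole multiples of the column's smallest value above 0 (tolerance 0.001 reads), and TMM factors recomputed from these reads gave the deposited scale, so it was read as TMM-scaled CPM. The authors' deposited table holds their log2 fold changes, p-values and false discovery rates.

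Genes with at least 1 CPM in 2 libraries were tested (13224, with 4488 below). Log2(CPM + 1) was fitted with limma 3.58.1 (trend, genotype alone, R 4.3.3) and called at a Benjamini-Hochberg adjusted p under 0.05. The steps were tested on simulated data. Alternatives were edgeR 4.0.16 and DESeq2 1.42.0 on the recovered reads, other pseudocounts (0.1 and 0.5), filters and scalings, a replicate block, and leaving out each library. Exon lengths and coordinates are from GENCODE M21 (mm10), with all annotated exons of a gene merged. Named beside the members were Shh, called pathway and target genes, the 2 most abundant of each list, and the 5 nearest profiles of Cyp26b1 and Aldh1a2. The members and lists were chosen with earlier results of these data known.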

Additional observations from a re-analysis of the deposited data

How the results depend on the processing

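The calls over all genes numbered 328, but 526 with DESeq2, 170 with no filter, and 56 to 802 when 1 library was left out. Of the members, Cyp26b1 was called under every alternative. The count of called members rose to 2 with DESeq2 (Crabp2 added) and with the replicate block (Aldh1a2 added, adjusted p = 0.0455), and was 1 to 2 with a library left out. The count of other pathway genes was 0 with DESeq2, no filter, a filter of 5 CPM and quantile normalization, and 0 to 3 with a library left out; that of target genes was 0 to 1. The log2 difference of Rara turned to −0.034 without Shh null 1, and reached 0.37 without Shh null 2. Same-numbered libraries deviated in opposite directions (r = −0.203 across genes, which are not replicates), and the labels do not say whether the numbers pair them. A crossed pairing, chosen after seeing the data, called 1386 genes, 2 members, 4 other pathway genes and 2 target genes. The block gave 396 calls over all genes and moved no count of other pathway or target genes. Without division by exon length, Cyp26b1 took 89.6% of CYP26 in Shh null and 92.6% in wild type, Aldh1a2 78.4% and 91.4% of ALDH1A, and Crabp2 80.4% and 78.3% of CRABP, in the same order of groups. With AGGTCA and AGTTCA as the only hexamers, the 5-base and the 2-base repeat were each in 0.0396% of windows. The cause of these changes was not tested, except that fewer libraries or more genes tested enter some fits. Depth was 26 to 116 reads a library for Aldh1a2 and 651 to 1641 for Cyp26b1.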

Other observations

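Partners and coregulators of the receptors were named here after their values were seen. Rxra, the main RXR partner gene, was at 80.7 and 61.8 CPM in Shh null and at 60.5 and 66.1 CPM in wild type, and Rxrb was at 29.3 and 29.4 CPM in Shh null and at 30.5 and 26.9 CPM in wild type. Rxrg stayed at or below 0.441 CPM in the 4 libraries. Per kilobase of exon, Rxra made up 63.2% ± 4.24 of the summed RXR level in Shh null and 61.2% ± 3.21 in wild type (SD, n = 2 each). The corepressor gene Ncor1 was at 157 and 146 CPM in Shh null and at 147 and 153 CPM in wild type. The coactivator gene Ncoa1 was at 12.03 and 10.52 CPM in Shh null and at 7.76 and 6.17 CPM in wild type, which limma did not call (adjusted p = 0.0869), whereas its false discovery rate in the authors' deposited table was 0.039. Stra6, which encodes the cell-surface receptor for retinol-binding protein, was at 57.5 and 37.6 CPM in Shh null and at 42.0 and 49.3 CPM in wild type, so that both extremes were Shh null libraries.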
